A study of Mus musculus with 62 samples.

Results

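Transcript levels of the glucocorticoid receptor gene Nr3c1 and 9 genes known as its direct targets were followed in soleus of mice carrying melanoma cells. Soleus is a muscle of the lower leg rich in slow-twitch fibres. The 10 genes were taken by symbol from a table of 47643 genes, and all 10 passed the filter on low values that left 13529 genes for testing. The 62 libraries came from female mice, 2 months old, in 12 groups. Mice injected with cachectic melanoma cells (CAC, named after cachexia, a loss of muscle and weight), with non-cachectic melanoma cells (NCAC) or with a mock injection (Con) were sampled 2, 4, 6 and 8 weeks later. Each group had 5 libraries, except CAC at 8 weeks with 7. The strain is uncertain, because the labels of single samples give C57BL6/J, whereas the description of the design gives NCI Ath/nude, mice that lack most T cells, and the extraction text mentions LLC cells, which appear in no group. The labels name no melanoma line, no genetic change and no clone, and call the libraries biological replicates.

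The glucocorticoid receptor is a nuclear receptor that rests in the cytoplasm in a complex with Hsp90 and its co-chaperones. On binding a glucocorticoid such as corticosterone it moves to the nucleus and acts on DNA, often at palindromes of the arm AGAACA and its reverse complement TGTTCT, and many targets respond within hours. In muscle, long exposure to glucocorticoids slows protein synthesis, speeds protein breakdown and causes wasting. The 9 targets span a feedback regulator of the receptor (Fkbp5), inhibitors of other signals (Tsc22d3, Errfi1, Ddit4), transcription factors (Klf15, Klf9, Zbtb16), a kinase (Sgk1) and an enzyme of nitrogen metabolism (Glul). They are called direct targets from general knowledge, and several also respond to fasting, cytokines or other stress. No hormone level, receptor protein or receptor binding was analysed here.

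The 3 windows are shown because they hold receptor-type sequences near an annotated start of targets described below, Sgk1, Glul and Tsc22d3. RefSeq windows of 300 bases (250 before and 50 after an annotated start, build GRCm38.p6) were matched for 8 of the 10 genes, with 16 windows in all, and Nr3c1 and Zbtb16 were not among them. Both strands were searched for the palindrome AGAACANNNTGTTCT, for its 9-letter core ACANNNTGT and for its 6-letter arm TGTTCT, so a palindrome also counts as a core and as both arms. Capitals mark the match, and coordinates are those of the window.
Sgk1, chr10:21993640-21993939, plus strand, palindrome: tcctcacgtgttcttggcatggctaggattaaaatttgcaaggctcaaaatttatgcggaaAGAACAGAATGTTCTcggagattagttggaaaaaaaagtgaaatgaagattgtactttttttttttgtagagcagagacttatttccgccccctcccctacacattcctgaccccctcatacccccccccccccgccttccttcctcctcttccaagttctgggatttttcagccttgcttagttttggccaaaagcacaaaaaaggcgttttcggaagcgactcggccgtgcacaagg
Glul, chr1:153899679-153899978, plus strand, core: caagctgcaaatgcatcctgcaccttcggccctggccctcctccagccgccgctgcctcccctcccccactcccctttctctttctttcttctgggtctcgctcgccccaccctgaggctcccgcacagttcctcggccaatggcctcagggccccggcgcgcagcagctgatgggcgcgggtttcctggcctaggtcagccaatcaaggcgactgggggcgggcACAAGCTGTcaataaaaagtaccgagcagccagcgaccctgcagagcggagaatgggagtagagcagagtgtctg
Tsc22d3, chrX:140600473-140600772, minus strand, arm: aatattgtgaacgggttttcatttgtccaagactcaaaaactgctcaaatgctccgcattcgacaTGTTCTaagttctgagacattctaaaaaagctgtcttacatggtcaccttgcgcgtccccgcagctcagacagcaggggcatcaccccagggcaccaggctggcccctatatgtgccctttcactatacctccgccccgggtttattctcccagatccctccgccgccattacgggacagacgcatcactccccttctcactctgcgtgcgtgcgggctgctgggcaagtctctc
The Sgk1 window belongs to 1 of 6 annotated starts of that gene and lies inside the gene, and its palindrome spans bases -189 to -175 from that start. The palindrome was in 3 of 32851 windows of all genes (0.00913%) and in 1 of the 16. The core lay at -25 to -17 in Glul and was in 6.85% of all windows and in 3 of the 16 (Glul and 2 of Sgk1). The arm lay at -185 to -180 in Tsc22d3 and was in 19% of all windows and in 4 of the 16 (1 of Tsc22d3 and 3 of Sgk1). The Tsc22d3 window belongs to 1 of 3 annotated starts of that gene, the farthest upstream. Its arm lies 52136 bases from the nearest downstream start, and the other Tsc22d3 windows held no match. The windows of Fkbp5, Errfi1, Klf15, Klf9 and Ddit4 held no match of any of the 3 kinds. A match is a run of letters and not a measured binding site.

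Levels are given in TPM, a unit scaled per transcript length in which every library adds up to 1 fixed sum, and the sequencing depth is unknown. Tests were made with limma on log2(TPM + 1) within each week, and a gene was called at a Benjamini-Hochberg adjusted p under 0.05 over all 13529 genes. Log2 differences and folds are on that TPM + 1 scale. Correlations between libraries of a group were at least 0.971 at 2 to 6 weeks and at least 0.912 at 8 weeks, where markers of fat and connective tissue cells were high in all 3 treatments. Summed adipocyte markers were 1758 to 12742 TPM in CAC, 1564 to 10714 TPM in NCAC and 1064 to 9211 TPM in Con at 8 weeks, against 296 to 380.5 TPM in Con at 6 weeks. The fast-fibre myosin Myh4 reached 500 TPM in 3 libraries, CAC at 2 weeks replicate 4, CAC at 8 weeks replicate 6 and NCAC at 6 weeks replicate 3. Slow-fibre markers summed to 11269.9 TPM or more in every library. Lymphocyte markers passed the filter for 0 of 5 genes, but the filter does not show a signal in single libraries. At 8 weeks these markers summed to 24.7 TPM in NCAC replicate 3, 9.69 TPM in Con replicate 1 and 4.48 TPM in CAC replicate 3. In every other library they summed to 1.76 TPM or less. In whole muscle, fewer cells of a type and less RNA per cell cannot be told apart.

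Nr3c1 itself was not called between any treatments at any week. At 6 weeks its level was 25.6, 27.4, 31.8, 26.0 and 19.4 TPM in CAC, 30.3, 35.2, 35.0, 24.0 and 20.1 TPM in NCAC and 30.7, 26.2, 25.0, 27.7 and 32.6 TPM in Con. The 3 groups overlapped, with a log2 difference of -0.13 between CAC and Con (95% interval -0.45 to 0.19, adjusted p = 0.524). At 8 weeks it was 26.9 at the lowest, 35.9 at the median and 43.3 at the highest TPM in the 7 CAC libraries, 63.4, 32.0, 35.3, 59.6 and 44.0 TPM in NCAC and 42.8, 56.0, 43.9, 39.8 and 43.0 TPM in Con. The CAC mean was the lowest of the 3, with log2 differences of -0.30 from Con (95% interval -0.66 to 0.06, adjusted p = 0.284) and -0.31 from NCAC (95% interval -0.67 to 0.05, adjusted p = 0.204). After median-of-ratios rescaling of the TPM values, Nr3c1 was called lower in CAC than in NCAC at 6 weeks (adjusted p = 0.049) and at 8 weeks (adjusted p = 0.0193), and in the fit of all 12 groups at 8 weeks (adjusted p = 0.0463). In the order of the 12 group means, the 3 groups of 8 weeks came first, at 36.8 ± 6.49 TPM in CAC, 46.9 ± 14.1 TPM in NCAC and 45.1 ± 6.30 TPM in Con (SD, n = 7, 5 and 5). The other 9 means lay between 26.1 and 30.6 TPM, and neighbours among them differed by less than either SD, while the means of Con and CAC at 8 weeks differed by more than either SD.

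**Figure D1:**
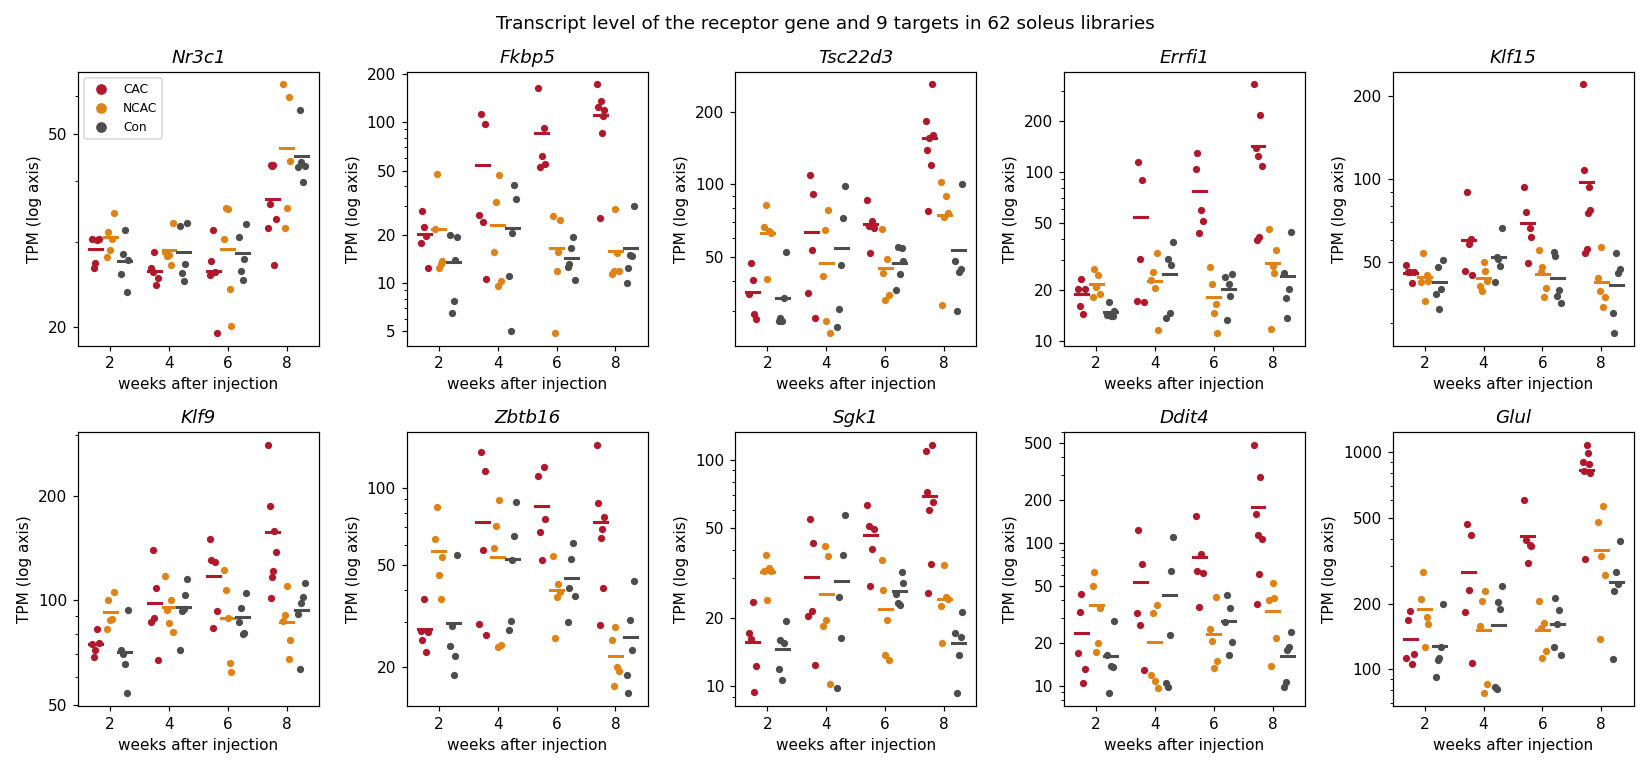
Level of each of the 10 genes (TPM, log axis) by weeks after injection, with CAC, NCAC and Con from left to right in each week, 1 point per library and a bar at the group mean. Nr3c1 stays between 26.1 and 30.6 TPM in the mean of every group up to 6 weeks, while the Fkbp5 means of CAC at 6 and 8 weeks, 85.1 and 110.1 TPM, stand above those of the other treatments.

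At 6 weeks, 8 of the 9 targets rose in CAC muscle against Con, by 1.43 to 5.18 times, and 0 fell. They were Fkbp5, Errfi1, Ddit4, Glul, Zbtb16, Sgk1, Klf15 and Tsc22d3. Over all genes, 27.4% were called in this comparison and 23.5% were called higher. The median log2 difference of the 9 targets was 0.90, against 0.16 over all genes tested. The same 8 genes rose against NCAC, where 32.6% of all genes were called and 27.8% were called higher, with a median of 1.10 for the targets and 0.16 for all genes. Both comparisons use the same CAC libraries. After rescaling, 6 members were called higher against Con and 7 were called, with Nr3c1 as the lower one, against NCAC. Of the 13529 genes tested, 1503 were then higher against Con and 1964 against NCAC. In the fit of all 12 groups, 4 members were called against Con and 7 against NCAC, beside 3269 and 3760 of all genes.

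Fkbp5 (chr17:28399094-28517527, minus strand, by the GENCODE M21 annotation of mm10) encodes FKBP51, an Hsp90 co-chaperone that lowers the receptor's affinity for hormone and closes a negative feedback loop. Its level at 6 weeks was 164, 52.7, 61.9, 92.2 and 55.0 TPM in CAC, 26.0, 4.87, 11.8, 15.5 and 24.5 TPM in NCAC and 12.5, 13.2, 16.4, 19.4 and 10.5 TPM in Con. Every CAC library lay above every library of the other treatments. The increase was 5.18-fold over Con (log2 difference 2.37 ± 0.37, adjusted p = 0.000347) and 5.08-fold over NCAC (adjusted p = 0.000288). Fkbp5, Errfi1 and Glul were the 3 members with no overlap at 6 weeks against both Con and NCAC, while 13.3% of all genes had every CAC library above every Con library and 11.7% had every CAC library above every NCAC library.

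Errfi1 (chr4:150853919-150868892, plus strand), which encodes the EGF receptor inhibitor Mig-6, measured 104, 129, 43.4, 59.2 and 51.2 TPM in CAC, 27.3, 21.9, 14.6, 16.6 and 11.1 TPM in NCAC and 23.8, 13.4, 21.8, 18.5 and 24.8 TPM in Con. The lowest CAC library was above the highest of both other groups, and the increase over Con was 3.42-fold (log2 difference 1.77 ± 0.28, adjusted p = 0.000441). Tsc22d3 (chrX:140539528-140600659, minus strand), the source of the anti-inflammatory protein GILZ, measured 86.1, 67.1, 51.9, 70.5 and 66.0 TPM in CAC, 65.2, 43.0, 33.2, 49.0 and 35.0 TPM in NCAC and 36.5, 54.9, 42.6, 54.6 and 48.1 TPM in Con. Its groups overlapped and its increase was the smallest of the 8, at 1.43-fold over Con (log2 difference 0.52 ± 0.17, adjusted p = 0.0356). Under rescaling Tsc22d3 missed the threshold against Con (adjusted p = 0.199) and against NCAC (adjusted p = 0.0941), and without any 1 of CAC replicates 1, 2 and 4 or Con replicates 1, 3 and 5 it missed it against Con (adjusted p = 0.0547 to 0.106).

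Of the 3 transcription factors, Klf15 (chr6:90462576-90475238, plus strand), which drives amino acid breakdown in muscle, measured 93.8, 76.0, 49.4, 66.5 and 61.5 TPM in CAC, 55.2, 46.0, 48.0, 37.1 and 40.1 TPM in NCAC and 54.2, 52.4, 37.7, 39.7 and 35.4 TPM in Con. It rose 1.56-fold over Con (log2 difference 0.64 ± 0.16, adjusted p = 0.0103) with some overlap between the groups. Zbtb16 (chr9:48654297-48836222, minus strand), which encodes the zinc finger factor PLZF, measured 111, 67.2, 52.4, 120.3 and 75.3 TPM in CAC, 54.1, 26.1, 37.3, 42.3 and 39.3 TPM in NCAC and 30.0, 40.5, 52.7, 60.9 and 38.0 TPM in Con. Its increase was 1.87-fold over Con (log2 difference 0.90 ± 0.23, adjusted p = 0.012), with all 5 CAC libraries above the mean log2 value of Con. Klf9 (chr19:23141226-23168134, plus strand), a hormone-responsive Krüppel-like factor, ranged from 83.4 to 149.8 TPM in CAC, 62.2 to 122 TPM in NCAC and 80.0 to 105 TPM in Con. It was the 1 target not called, with a log2 difference of 0.36 from Con (95% interval -0.03 to 0.76, adjusted p = 0.148) and 0.41 from NCAC (adjusted p = 0.1).

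Sgk1 (chr10:21882184-21999903, plus strand), a kinase related to Akt that acts on ion transport and cell survival, measured 62.8, 50.9, 27.7, 40.5 and 49.6 TPM in CAC, 36.0, 26.7, 13.8, 19.7 and 13.1 TPM in NCAC and 25.5, 23.2, 22.8, 31.9 and 28.7 TPM in Con. CAC replicate 3 lay among the Con libraries, and the increase was 1.68-fold over Con (log2 difference 0.75 ± 0.24, adjusted p = 0.0331) and 2.14-fold over NCAC (adjusted p = 0.00379). The call of Sgk1 against Con was lost under rescaling (adjusted p = 0.111) and without any 1 of CAC replicates 1, 2 and 4 or Con replicates 1, 2 and 3 (adjusted p = 0.0545 to 0.0994). Ddit4 (chr10:59949669-59951834, minus strand), which encodes the mTORC1 inhibitor REDD1, measured 156, 64.2, 35.9, 84.5 and 62.1 TPM in CAC, 25.0, 20.6, 13.5, 41.9 and 14.9 TPM in NCAC and 28.0, 43.1, 16.4, 35.2 and 20.2 TPM in Con. Its CAC libraries differed widely, CAC replicate 3 overlapped with Con, and the increase was 2.60-fold over Con (log2 difference 1.38 ± 0.36, adjusted p = 0.0113). Glul (chr1:153899944-153909723, plus strand), the glutamine synthetase that binds ammonia into glutamine for export from muscle, measured 605, 396, 308, 372 and 369.8 TPM in CAC, 205, 155, 113, 163 and 121 TPM in NCAC and 127, 212, 161, 187 and 116 TPM in Con. All CAC libraries were above all others, at 2.54-fold over Con (log2 difference 1.34 ± 0.20, adjusted p = 0.000242).

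Markers of other cell types also differed at 6 weeks. Of the markers, 3 of 5 for adipocytes, 3 of 6 for macrophages, 3 of the 3 tested for neutrophils, 2 of 4 for endothelium and 1 of 5 for fibro-adipogenic progenitors were called higher in CAC than in Con, 1 endothelial marker was called lower, and 0 of the 10 fibre-type markers was called. Summed adipocyte markers were 763 to 1515 TPM in CAC, 161 to 553 TPM in NCAC and 296 to 380.5 TPM in Con, and summed macrophage markers 93.1 to 117 TPM in CAC, 23.4 to 95.6 TPM in NCAC and 49.1 to 66.0 TPM in Con. Summed neutrophil markers were 12.5 to 27.8 TPM in CAC, 4.07 to 11.1 TPM in NCAC and 4.61 to 12.6 TPM in Con, with Ly6g and Mmp8 below 1 TPM in the mean of every group. Against NCAC, 3 of 5 adipocyte, 4 of 6 macrophage, 3 of the 3 tested neutrophil, 2 of 5 fibro-adipogenic, 2 of 5 tenocyte and 2 of 4 endothelial markers were called higher, and 1 of 5 fast-fibre and 1 of 4 endothelial markers lower. The part of these cells in the levels of the targets was not tested.

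At 8 weeks, all 9 targets rose in CAC muscle against Con, by 1.62 to 8.01 times. Over all genes 10.6% were called and 6.31% were called higher, and the median log2 difference was 1.74 for the targets and 0.00 for all genes. All 9 also rose against NCAC, where 21.9% of all genes were called and 19.3% were called higher, with medians of 1.34 and 0.16. Rescaling left 8 members called higher against Con, where 771 of the 13529 genes tested were higher (690 against NCAC). Against NCAC it left 6 calls, 5 targets higher and Nr3c1 lower, while Tsc22d3 (adjusted p = 0.0959), Klf15 (adjusted p = 0.0757), Klf9 (adjusted p = 0.119) and Glul (adjusted p = 0.0581) missed the threshold.

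Fkbp5 was 25.3 at the lowest, 119 at the median and 172 at the highest TPM in the 7 CAC libraries, 11.3, 11.8, 29.0, 15.4 and 11.9 TPM in NCAC and 9.97, 12.4, 14.9, 14.6 and 30.1 TPM in Con. Only CAC replicate 3, the lowest, reached down to the other groups, and the increase was 6.04-fold over Con (log2 difference 2.60 ± 0.39, adjusted p = 0.00123) and 6.20-fold over NCAC (adjusted p = 0.000614). Errfi1 was 39.5 at the lowest, 123 at the median and 327 at the highest TPM in CAC, 45.7, 11.8, 27.7, 25.3 and 34.3 TPM in NCAC and 25.2, 18.1, 13.7, 20.3 and 44.3 TPM in Con, with CAC replicates 3 and 5 inside the range of the other groups. Its increase was 4.80-fold over Con (log2 difference 2.26 ± 0.47, adjusted p = 0.00733). Tsc22d3 was 77.5 at the lowest, 155 at the median and 259.5 at the highest TPM in CAC, 103, 31.7, 73.6, 89.4 and 75.9 TPM in NCAC and 48.4, 30.0, 43.6, 44.7 and 101 TPM in Con. It rose 2.96-fold over Con (log2 difference 1.57 ± 0.32, adjusted p = 0.00681), and 1 Con library, replicate 5, lay above the lowest CAC library.

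Klf15 was 54.1 at the lowest, 77.5 at the median and 221 at the highest TPM in CAC, 43.8, 39.3, 56.5, 34.3 and 37.2 TPM in NCAC and 32.5, 27.5, 54.1, 45.6 and 47.0 TPM in Con. The CAC and Con libraries did not overlap, although their nearest libraries are equal to the digits shown, and the increase was 2.15-fold (log2 difference 1.11 ± 0.28, adjusted p = 0.0209). Without Con replicate 1 (adjusted p = 0.0539) or Con replicate 2 (adjusted p = 0.0619), Klf15 missed the threshold against Con. Zbtb16 was 29.1 at the lowest, 69.3 at the median and 147 at the highest TPM in CAC, 25.5, 16.9, 28.6, 20.0 and 19.3 TPM in NCAC and 18.6, 15.8, 30.5, 23.3 and 43.3 TPM in Con. It was the 1 member with every CAC library above every NCAC library, as 6.06% of all genes were, and rose 2.94-fold over NCAC (adjusted p = 0.00412) and 2.60-fold over Con (log2 difference 1.38 ± 0.32, adjusted p = 0.0131). Klf9 was 101 at the lowest, 138 at the median and 281 at the highest TPM in CAC, 87.1, 90.7, 109.9, 67.6 and 76.6 TPM in NCAC and 91.2, 63.5, 98.4, 102 and 112 TPM in Con. Its increase was the smallest, 1.62-fold over Con (log2 difference 0.70 ± 0.22, adjusted p = 0.0489), and the call was lost under rescaling (adjusted p = 0.0807) and in 10 of 12 fits that left out 1 CAC or Con library.

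Sgk1 was 25.7 at the lowest, 65.1 at the median and 117 at the highest TPM in CAC, 22.7, 15.6, 34.4, 24.8 and 24.4 TPM in NCAC and 17.2, 9.30, 13.8, 16.5 and 21.2 TPM in Con. Every CAC library was above every Con library, and the increase was 3.87-fold (log2 difference 1.95 ± 0.32, adjusted p = 0.00257). Ddit4 was 37.4 at the lowest, 114 at the median and 491 at the highest TPM in CAC, 39.9, 13.8, 52.4, 41.0 and 21.7 TPM in NCAC and 9.84, 10.7, 17.9, 18.8 and 23.9 TPM in Con. It had the largest increase of the 9 over Con, 8.01-fold (log2 difference 3.00 ± 0.51, adjusted p = 0.00276), with no overlap, and a 4.18-fold increase over NCAC (adjusted p = 0.0105). Glul was 321 at the lowest, 884 at the median and 1085 at the highest TPM in CAC, 475, 138, 332, 564 and 272 TPM in NCAC and 111, 230.1, 281, 247 and 390.3 TPM in Con. The 6 CAC libraries other than replicate 3 were above every other library, and Glul rose 3.35-fold over Con (log2 difference 1.74 ± 0.36, adjusted p = 0.00726). Sgk1, Klf15 and Ddit4 were the 3 members with every CAC library above every Con library, as 3.98% of all genes were.

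Adipocyte (0 of 5) and macrophage (0 of 6) markers were not called between CAC and Con at 8 weeks, where summed macrophage markers were 355 to 869 TPM in CAC, 142 to 612 TPM in NCAC and 362 to 736 TPM in Con. Slow-fibre markers were called lower for 2 of 5, with sums of 11269.9 to 26304 TPM in CAC, 14972 to 28214 TPM in NCAC and 19132 to 23596 TPM in Con. Of the other markers, 2 of 5 for tenocytes were called lower, 1 of the 3 tested for neutrophils was called higher, and 1 of 4 endothelial markers was called in each direction. Between CAC and NCAC at 8 weeks, 2 of 4 endothelial markers and 1 of the 3 tested neutrophil markers were called higher, 1 of 5 slow-fibre and 1 of 5 tenocyte markers lower, and 0 adipocyte and 0 macrophage markers were called. The part of these shifts in the levels of the targets was not tested.

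**Figure D2:**
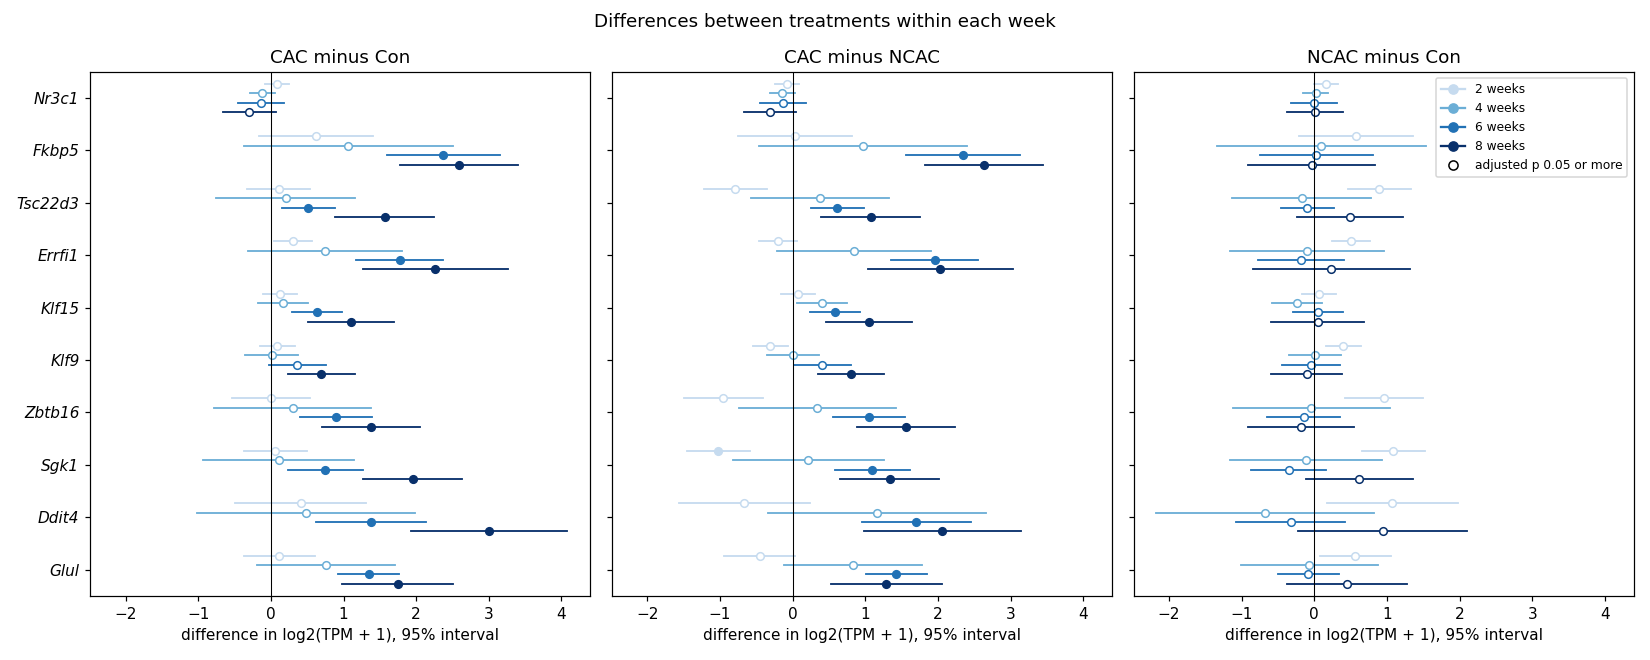
Difference in mean log2(TPM + 1) of each of the 10 genes by week, for CAC minus Con, CAC minus NCAC and NCAC minus Con, with 95% intervals and filled points where the adjusted p is under 0.05. The targets of both CAC comparisons lie above 0 at 6 and 8 weeks, with Ddit4 at 3.00 and Fkbp5 at 2.60 over Con at 8 weeks, while no point of NCAC minus Con is filled.

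At 2 weeks, 1 member was called, and it was lower in CAC. Sgk1 was 17.2, 16.2, 23.7, 9.47 and 12.3 TPM in CAC, 32.3, 37.9, 24.1, 33.4 and 32.4 TPM in NCAC and 11.9, 16.0, 10.7, 15.5 and 19.3 TPM in Con. The CAC libraries overlapped with the Con libraries and lay below every NCAC library, with 2.03-fold less Sgk1 in CAC than in NCAC (log2 difference -1.02 ± 0.20, adjusted p = 0.0489). Over all genes 0.503% were called between CAC and NCAC and 0.103% were called lower. This call of Sgk1 was lost in the fit of all 12 groups, without the filter on low values, and without any of 6 single libraries, CAC replicates 4 and 5 and NCAC replicates 1, 3, 4 and 5 (adjusted p = 0.0637 to 0.119). Without the 2-week library of high Myh4, which is CAC replicate 4, 0 members were called, beside 1 of all genes between CAC and NCAC.

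Zbtb16 at 2 weeks was 27.6, 25.6, 36.8, 22.9 and 27.4 TPM in CAC, 63.2, 83.8, 45.8, 37.0 and 53.7 TPM in NCAC and 24.1, 29.0, 18.6, 22.1 and 54.7 TPM in Con. Klf9 was 74.9, 68.4, 71.7, 82.5 and 75.3 TPM in CAC, 82.8, 99.9, 87.5, 88.3 and 106 TPM in NCAC and 72.0, 70.2, 65.4, 53.9 and 93.5 TPM in Con. In both, every CAC library was below every NCAC library, as in 0.946% of all genes, without a call (adjusted p = 0.0738 for Zbtb16 and 0.149 for Klf9). The median log2 difference between CAC and NCAC over the 9 targets was -0.45, against 0.04 over all genes. Slow-fibre markers, of which 0 of 5 were called, 5 were at an unadjusted p under 0.05 and 3 had every CAC library above every NCAC library, summed to 30473 to 35127 TPM in CAC, 21228 to 29006 TPM in NCAC and 27350.3 to 34891 TPM in Con, and 1 of 5 tenocyte markers was called higher in CAC. Their part in these values was not tested.

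The anti-inflammatory gene Tsc22d3 was 35.3, 47.4, 40.3, 29.2 and 27.8 TPM in CAC, 66.8, 82.1, 40.7, 63.9 and 62.8 TPM in NCAC and 27.3, 28.1, 27.3, 33.9 and 52.7 TPM in Con at 2 weeks. Its CAC and NCAC libraries overlapped in replicate 2 of CAC and replicate 3 of NCAC, and the difference was not called (log2 difference -0.79 ± 0.20, adjusted p = 0.0711) except without CAC replicate 2 (adjusted p = 0.0458). Ddit4 ranged from 10.5 to 44.4 TPM in CAC, 17.3 to 62.8 TPM in NCAC and 8.85 to 28.6 TPM in Con. Glul ranged from 105 to 185 TPM in CAC, 127 to 279 TPM in NCAC and 92.3 to 200.3 TPM in Con, so that the groups overlapped in both genes. Fkbp5 was also spread within groups, at 17.6, 28.2, 22.4, 19.7 and 12.4 TPM in CAC, 21.8, 47.8, 12.4, 13.0 and 13.7 TPM in NCAC and 20.0, 6.48, 7.77, 13.9 and 19.2 TPM in Con, with NCAC replicate 2 the highest of all. Klf15 ranged from 41.8 to 48.8 TPM in CAC, 36.0 to 53.9 TPM in NCAC and 33.8 to 51.0 TPM in Con, also with overlap.

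Between CAC and Con at 2 weeks, 0% of all genes and 0 members were called by limma, with 1 member (Errfi1, unadjusted p = 0.0257) and 1315 of all genes at an unadjusted p under 0.05. The median log2 difference of the targets was 0.11, against 0.06 over all genes. Between NCAC and Con at 2 weeks, 0 members were called by limma, beside 0.00739% of all genes, while 7 of the 10 members and 1538 of all genes were at an unadjusted p under 0.05. The targets had a median log2 difference of 0.58, against 0.02 over all genes, and Sgk1 (log2 difference 1.09 ± 0.20, adjusted p = 0.11) and Errfi1 (log2 difference 0.51 ± 0.12, adjusted p = 0.15) had every NCAC library above every Con library, as 1.12% of all genes did. Leaving out Con replicate 5, which was the highest Con library in 7 of the 9 targets, brought Sgk1 (adjusted p = 0.0237), Tsc22d3 (adjusted p = 0.023), Klf9 (adjusted p = 0.0274) and Zbtb16 (adjusted p = 0.0229) past the threshold in NCAC against Con. At 4, 6 and 8 weeks, 0 members were called or at an unadjusted p under 0.05 between NCAC and Con by limma, beside 0.00739%, 0% and 0% of all genes called and 242, 328 and 1205 genes at an unadjusted p under 0.05. The median log2 differences of the targets were then -0.10, -0.10 and 0.23, against -0.03, -0.01 and -0.17 over all genes.

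At 4 weeks the targets differed widely among libraries of the same group and 0 of them were called by limma, beside 1.03% of all genes called between CAC and Con and 5.84% between CAC and NCAC. At an unadjusted p under 0.05 there were 0 members and 2709 genes against Con, and 1 member (Klf15) and 3722 genes against NCAC. Fkbp5 was 26.4, 113, 24.0, 97.6 and 10.6 TPM in CAC, 15.5, 31.9, 9.61, 46.8 and 10.2 TPM in NCAC and 11.0, 5.03, 20.5, 40.4 and 33.3 TPM in Con. CAC replicates 2 and 4 stood at the level of CAC muscle at 6 weeks, and the other 3 CAC libraries within the range of Con. Errfi1 was 17.3, 115, 30.7, 88.8 and 17.1 TPM in CAC and 13.7, 30.4, 14.6, 28.1 and 38.5 TPM in Con, and Glul was 183, 466, 232, 415 and 106 TPM in CAC and 82.8, 80.7, 203, 189 and 241 TPM in Con. The same 2 CAC libraries were the highest of their group in Sgk1, at 20.5, 54.8, 21.4, 43.0 and 12.4 TPM in CAC, 18.4, 41.8, 19.7, 37.5 and 10.3 TPM in NCAC and 9.86, 24.9, 16.3, 38.1 and 56.8 TPM in Con. Ddit4 was 32.2, 123, 26.6, 71.5 and 12.9 TPM in CAC, 9.65 to 36.7 TPM in NCAC and 10.4, 9.79, 22.9, 64.0 and 111 TPM in Con, where Con replicates 4 and 5 also stood high. In all 9 targets, CAC replicate 2 was the highest of the 5 CAC libraries, replicate 4 the next, and replicate 5 the lowest. The median log2 difference of the targets was 0.30 against Con and 0.40 against NCAC, while all genes had 0.06 and 0.09.

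The targets also moved together between libraries of several other groups, but not of all. In Con at 6 weeks, replicates 2 and 4 were each the highest in only 3 of 9 targets, and replicates 3 and 5 each the lowest in 3. Whether other genes move together to the same degree was not tested. Con replicate 5 at 4 weeks was the highest Con library in 8 of 9 targets, and Con replicate 5 at 8 weeks likewise in 8 of 9. In CAC, replicate 1 at 6 weeks was the highest in 7 of 9 and replicate 3 the lowest in 8 of 9, and replicate 3 at 8 weeks was the lowest of 7 in all 9. In NCAC, replicate 2 at 2 weeks and replicate 1 at 6 weeks were each the highest in 8 of 9. At 4 weeks, NCAC replicates 4 and 2 were among the 2 highest NCAC libraries in 9 and 7 targets, and replicate 5 was the lowest in 5. These are the numbers of the highest and lowest CAC libraries of that week, and the labels do not say whether a number marks a shared day or cage. Nr3c1 was the highest of its group in Con replicate 5 at 4 weeks, as the targets mostly were, but also in CAC replicate 3 at 6 and at 8 weeks, where most or all targets were lowest. It was number 3 of 5 in CAC replicate 2 and number 4 in CAC replicate 5 at 4 weeks, number 4 in CAC replicate 1 at 6 weeks, and number 3 in Con replicate 5 at 8 weeks. The clock gene Per1, which also responds to glucocorticoids, was at 88.1, 65.1 and 16.9 TPM in CAC replicates 2, 4 and 5 at 4 weeks, and at 113 and 41.8 TPM in CAC replicates 1 and 3 at 8 weeks. Elsewhere in CAC its order differed in part: replicate 5 at 8 weeks was lower than replicate 3, at 31.5 TPM. CAC replicate 2 at 6 weeks, at 85.6 TPM, was above replicate 1, at 69.2 TPM. Con replicate 5 was the highest Con library in Per1 at 4 weeks (47.7 TPM) and 8 weeks (57.1 TPM). In NCAC at 4 weeks, replicate 4 was the highest (47.4 TPM) and replicate 5 the lowest (9.53 TPM). In NCAC at 2 weeks, replicate 2 (39.5 TPM) was below replicate 4 (57.0 TPM). At 6 weeks, NCAC replicate 1 (47.9 TPM) was below replicate 2 (50.1 TPM). Summed macrophage markers at 4 weeks were 159.5 and 158 TPM in CAC replicates 2 and 4, and 90.7, 81.2 and 49.4 TPM in replicates 1, 3 and 5. CAC replicate 3 at 8 weeks had summed slow-fibre markers of 26304 TPM, while the remaining 6 of that group lay between 11269.9 and 16377 TPM. It also had the lowest summed fibro-adipogenic progenitor markers of the 7, at 1523 TPM, and the highest summed neutrophil markers, at 111 TPM. The part of cell content in this order was not tested.

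**Figure D3:**
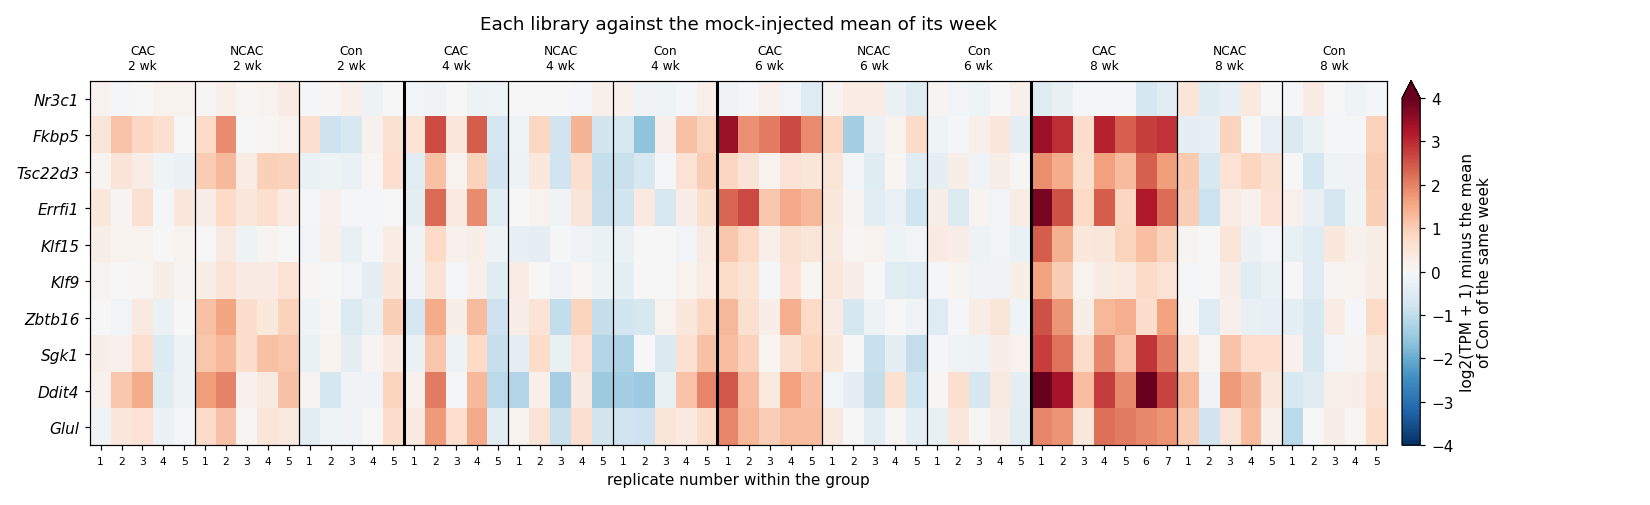
Log2(TPM + 1) of the 9 targets and Nr3c1 in each of the 62 libraries, as the difference from the mean of the Con libraries of that week, with a colour scale that ends at 4 (Ddit4 passes it in CAC at 8 weeks replicates 1 and 6). In several groups, though not in Con at 6 weeks, some libraries are high or low across most targets together. An example is CAC at 4 weeks, where replicate 2 is the highest of 5 in all 9 and replicate 5 the lowest.

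Whether the difference between CAC and Con changed with time was tested as an interaction. From 2 to 6 weeks, Errfi1 gained 1.47 ± 0.33 on the log2 scale beyond the 2-week difference (adjusted p = 0.00947), and Glul gained 1.23 ± 0.32 (adjusted p = 0.029). These were the 2 members called, where 3.36% of all genes were called and 2.63% called higher. Both calls were lost in the fit of all 12 groups (adjusted p = 0.398 for Errfi1 and 0.407 for Glul). Fkbp5 had a gain of 1.76 ± 0.55 that missed the threshold (adjusted p = 0.0792). The call of Glul was lost without any 1 of 6 libraries, CAC replicates 1 and 4 and Con replicate 5 of 2 weeks and CAC replicate 1 and Con replicates 1 and 5 of 6 weeks (adjusted p = 0.0516 to 0.0753). From 6 to 8 weeks, 0 members and 0% of all genes were called by limma, with 3 members and 1463 genes at an unadjusted p under 0.05, and a median log2 gain of 0.48 for the targets and -0.15 for all genes. Measured against NCAC, in a comparison added after the data were seen, the gain from 2 to 6 weeks was called for 8 of the 9 targets, with 16.1% of all genes called and 12.5% called higher. The median log2 difference of the targets from NCAC was -0.45 at 2 weeks and 1.10 at 6 weeks, so its sign changed. Errfi1 (2.16 ± 0.33, adjusted p = 6.81e-05), Sgk1 (2.12 ± 0.34, adjusted p = 0.00011) and Glul (1.88 ± 0.32, adjusted p = 0.000251) had the smallest adjusted p, and Klf15 was the 1 target not called (0.52 ± 0.20, adjusted p = 0.0806). In the fit of all 12 groups, Fkbp5 (adjusted p = 0.0585), Tsc22d3 (adjusted p = 0.078), Klf9 (adjusted p = 0.116) and Ddit4 (adjusted p = 0.078) were no longer called against NCAC.

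Mock-injected muscle itself differed between 8 and 6 weeks, where 53% of all genes were called, 47.5% higher and 5.43% lower at 8 weeks. Nr3c1 rose, with 42.8, 56.0, 43.9, 39.8 and 43.0 TPM at 8 weeks and 30.7, 26.2, 25.0, 27.7 and 32.6 TPM at 6 weeks (log2 difference 0.64 ± 0.17, adjusted p = 0.00264), and all 8-week libraries were above all 6-week ones, as in 44.5% of all genes. Sgk1 fell, with 17.2, 9.30, 13.8, 16.5 and 21.2 TPM at 8 weeks and 25.5, 23.2, 22.8, 31.9 and 28.7 TPM at 6 weeks (log2 difference -0.76 ± 0.32, adjusted p = 0.0459), and all 8-week libraries were below all 6-week ones, as in 5.79% of all genes. Zbtb16 fell by 0.78 on the log2 scale (adjusted p = 0.036). The call of Sgk1 was lost in 8 and that of Zbtb16 in 5 of 10 fits that left out 1 Con library (highest adjusted p 0.144 and 0.117, both without replicate 2 of 8 weeks). After rescaling, which shifted the median gene by 0.28, the difference of Nr3c1 was 0.31 (adjusted p = 0.0473). Called higher in Con at 8 weeks were 5 of 5 adipocyte, 6 of 6 macrophage, 5 of 5 fibro-adipogenic and 3 of the 3 tested neutrophil markers. Summed macrophage markers were 362 to 736 TPM at 8 weeks and 49.1 to 66.0 TPM at 6 weeks. The part of these cells in the level of Nr3c1 was not tested, and week and any difference in handling cannot be told apart.

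In the order of the 12 group means, CAC at 8 weeks came first in 8 of the 9 targets, and in Zbtb16 it came after CAC at 6 weeks (73.5 ± 38.3 TPM at 8 weeks, n = 7, and 85.3 ± 29.1 TPM at 6 weeks, n = 5, SD). Fkbp5 averaged 54.2 ± 47.1 TPM in CAC at 4 weeks, 85.1 ± 46.7 TPM at 6 weeks and 110.1 ± 45.8 TPM at 8 weeks (SD, n = 5, 5 and 7), and the other 9 groups lay between 13.5 and 22.8 TPM. Each of the 3 CAC means was within 1 SD of its neighbour. Across the 12 group means, Pearson's r of log2 values with Fkbp5 was 0.97 for Errfi1, 0.96 for Klf15, 0.91 for Ddit4, 0.86 for Klf9, 0.84 for Sgk1, 0.83 for Glul, 0.76 for Tsc22d3, 0.75 for Zbtb16 and -0.12 for Nr3c1. Of the tested genes other than the members and predicted genes, the 5 most like Fkbp5 by this measure were Slc39a14 (0.99), Clca3a1 (0.98), Sdad1 (0.98), Lemd3 (0.98) and Clk4 (0.98), and the 5 most like Nr3c1 were Ighm, Lctl, Rpa3, Tfpi2 and Engase (0.99 each). These are descriptions over 12 points that share week and treatment, chosen as the highest of many.

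Other genes known to respond to glucocorticoids were read as a list of 25, all of which were tested. In CAC against Con, 13 of 25 rose at 6 weeks and 8 of 25 at 8 weeks, where 23.5% and 6.31% of all genes were called higher, and 0 fell. The medians of the log2 difference were 0.61 and 0.82, beside 0.16 and 0.00 over all genes. At 2 and 4 weeks 0 were called against Con. After rescaling, 9 were higher at 6 weeks and 8 at 8 weeks, and 0 were lower. Of the 13529 genes tested, 1503 and 771 were then higher and 1527 and 967 lower. Against NCAC, 15 rose at 6 weeks and 12 at 8 weeks, where 27.8% and 19.3% of all genes were called higher. Rescaling left 12 and 7, where 1964 and 690 of all genes were higher. At 4 weeks 1 of 25 was called higher than in NCAC, beside 691 of the 13529 genes tested. It was Eif4ebp1 (log2 difference 1.15, adjusted p = 0.0202), which encodes a repressor of translation. Between NCAC and Con 0 were called at any week.

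The metallothionein genes, whose proteins bind zinc and copper, had the largest differences of the list. Mt2 averaged 622 ± 516 TPM in CAC, 16.2 ± 7.06 TPM in NCAC and 15.5 ± 2.73 TPM in Con at 6 weeks (SD, n = 5 each), a log2 difference of 4.95 from Con (adjusted p = 1.48e-07), and 4.18 at 8 weeks (adjusted p = 0.00288). Mt1 rose by 3.45 at 6 weeks (adjusted p = 3.13e-07) and 3.20 at 8 weeks (adjusted p = 0.00443). The Mt1 and Mt2 transcripts are similar, so the split of reads between them is uncertain. Cebpd, a transcription factor of the acute response, rose at 6 weeks (log2 difference 1.86 ± 0.31, adjusted p = 0.000667) and 8 weeks (log2 difference 2.50 ± 0.54, adjusted p = 0.00919). Hif3a, a hypoxia-inducible factor subunit, rose by 1.18 at 6 weeks (adjusted p = 0.000139) and 1.18 at 8 weeks (adjusted p = 0.0139).

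Foxo1 and Foxo3, transcription factors that turn on atrophy genes, rose less. Foxo1 gained 0.62 on the log2 scale at 6 weeks (adjusted p = 0.0145) and 0.82 at 8 weeks (adjusted p = 0.0196) over Con, and Foxo3 gained 0.61 at 6 weeks (adjusted p = 0.015) and 0.85 at 8 weeks (adjusted p = 0.0128). After rescaling, Foxo1 at 6 weeks was not called against Con (adjusted p = 0.0539) but was called against NCAC (0.57, adjusted p = 0.0159). At 8 weeks it was then not called against NCAC (adjusted p = 0.0782). Trim63, the muscle ubiquitin ligase MuRF1, averaged 225 ± 76.2 TPM in CAC, 128 ± 30.1 TPM in NCAC and 138 ± 23.3 TPM in Con at 6 weeks (SD, n = 5 each). It was called over Con at 6 weeks (log2 difference 0.65 ± 0.21, adjusted p = 0.0298, but adjusted p = 0.094 after rescaling) and missed the threshold at 8 weeks (log2 difference 1.50 ± 0.54, adjusted p = 0.0824). The other muscle ligase gene, Fbxo32 (atrogin-1), was not called against Con (0.23 at 6 weeks, adjusted p = 0.529, and 0.93 at 8 weeks, adjusted p = 0.191). Against NCAC at 8 weeks, Fbxo32 (1.31, adjusted p = 0.0431) and Trim63 (1.60, adjusted p = 0.0418) were called, and neither after rescaling. Against NCAC at 6 weeks after rescaling, Trim63 was called (0.58, adjusted p = 0.0341) and Fbxo32 was not (adjusted p = 0.801). Pdk4, a kinase that restrains glucose oxidation, differed from Con by 0.03 (95% interval -0.60 to 0.66, adjusted p = 0.945) at 6 weeks and 0.12 (95% interval -0.56 to 0.79, adjusted p = 0.861) at 8 weeks. Per1 differed from Con by 0.58 at 6 weeks (adjusted p = 0.0962) and 0.88 at 8 weeks (adjusted p = 0.132).

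Genes for the receptor's chaperones, its coregulators and the enzymes that handle its hormone were read as a list of 20, all tested. In CAC against Con, 9 rose at 6 weeks and 3 at 8 weeks, where 23.5% and 6.31% of all genes were called higher, and 0 fell. The medians of the log2 difference were 0.29 and 0.21, beside 0.16 and 0.00 over all genes. After rescaling there were 3 higher and 1 lower at 6 weeks, where 1503 of the 13529 genes tested were higher and 1527 lower. At 8 weeks there were 3 higher, with 771 of all genes higher and 967 lower. Hsd11b1, the enzyme that regenerates active glucocorticoid inside cells, averaged 9.66 ± 2.20 TPM in CAC, 2.95 ± 0.498 TPM in NCAC and 3.97 ± 0.458 TPM in Con at 6 weeks (SD, n = 5 each). It rose against Con by 1.08 ± 0.13 on the log2 scale at 6 weeks (adjusted p = 3.93e-05) and 1.18 ± 0.33 at 8 weeks (adjusted p = 0.0297), and it also differed within Con, higher at 8 than at 6 weeks by 1.75 (adjusted p = 9.45e-06). Hsd11b1 is also expressed by fat and connective tissue cells. Of 5 adipocyte markers, 3 were called higher in CAC than in Con at 6 weeks, 0 at 8 weeks, and 5 in Con at 8 against 6 weeks. Of 5 fibro-adipogenic progenitor markers, 1, 0 and 5 were called higher in these comparisons. Their part in the level of Hsd11b1 was not tested.

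Nr3c2, the mineralocorticoid receptor, which binds the same hormones, differed from Con by -0.16 at 6 weeks (95% interval -0.46 to 0.14, adjusted p = 0.408) and was the 1 gene called lower after rescaling (-0.33, adjusted p = 0.0408). The coregulator genes Nrip1 (0.73, adjusted p = 0.0083) and Crebbp (0.39, adjusted p = 0.00993) and the co-chaperone gene Bag1 (0.32, adjusted p = 0.0184) were called over Con at 6 weeks, Bag1 not after rescaling. At 8 weeks the co-chaperone genes Ptges3 (p23, 0.57, adjusted p = 0.0116) and Ppid (cyclophilin 40, 0.32, adjusted p = 0.0402) were called with Hsd11b1. After rescaling Ppid was not called (adjusted p = 0.0732), and the 3 genes called were Ptges3 (adjusted p = 0.0174), Hsd11b1 (adjusted p = 0.0256) and Nrip1 (adjusted p = 0.0443). Against NCAC, 7 of 20 rose at 6 weeks and 9 at 8 weeks, where 27.8% and 19.3% of all genes were called higher, and 0 fell. At 4 weeks 1 of 20, Bag1, was called higher than in NCAC (0.24, adjusted p = 0.0483), beside 691 of the 13529 genes tested. After rescaling 5 were higher than in NCAC and 2 lower at 6 weeks, where 1964 of the 13529 genes tested were higher and 1860 lower. At 8 weeks 2 were higher and 0 lower, with 690 of all genes higher and 840 lower.

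**Figure D4:**
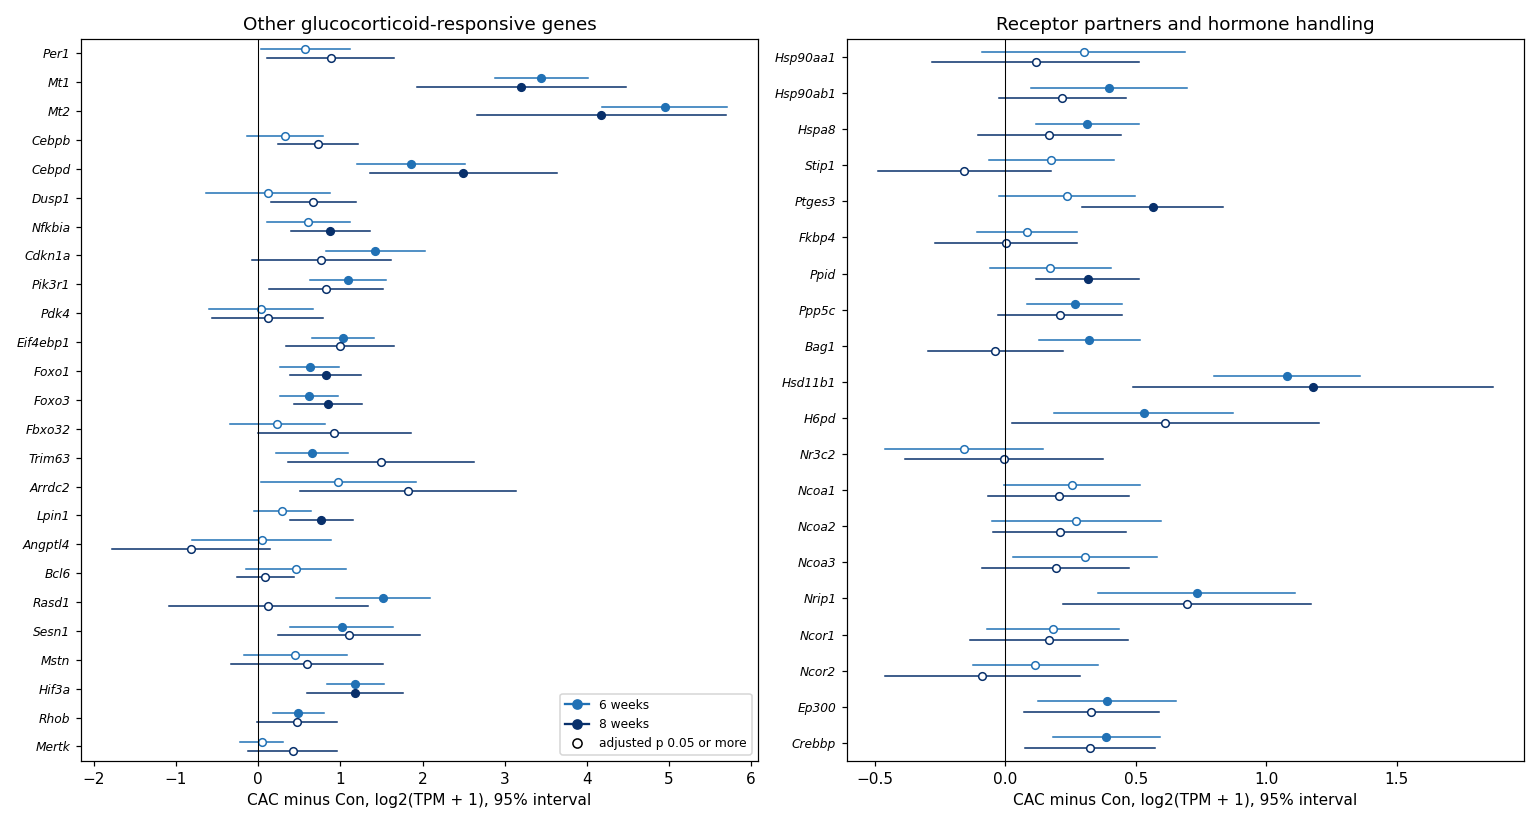
Difference in mean log2(TPM + 1) between CAC and Con for the 25 other glucocorticoid-responsive genes and the 20 genes of receptor partners and hormone handling, at 6 and 8 weeks, with filled points where the adjusted p is under 0.05. Mt2 and Mt1 stand farthest to the right at 6 weeks (4.95 and 3.45), and the receptor partners lie between -0.16 and 0.73 at 6 weeks, apart from Hsd11b1 (1.08).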

How the data were processed

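Soleus RNA of 62 mice was prepared as stranded mRNA libraries and sequenced on an Illumina NovaSeq, per the labels' protocols. The authors deposited 1 table of TPM values on build mm10, per the submitters' processing notes. Which aligner and quantifier they used is not given in the sources used here, and TPM gives no depth, so no counting interval or detection limit was computed. TPM is relative, so a change in abundant transcripts shifts all others. Groups and weeks came from the labels, each of the 62 columns was matched to 1 sample, and 0 libraries were identical.

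Genes with at least 1 TPM in at least 5 libraries (13529 of 47643) were tested. On the scale log2(TPM + 1), limma 3.58.1 in R 4.3.3 was run with an intensity trend, separately for the 3 groups of each week because the spread was larger at 8 weeks. Contrasts across weeks used the 6 groups of the weeks involved. P-values were adjusted by Benjamini-Hochberg over all genes tested, in each of 16 comparisons. The procedure was tested on simulated data for the comparisons within a week only, with 200 genes changed in each. Changes of 1 on the log2 scale were found in 90% to 97% of cases at 2 to 6 weeks and in 65% to 76% at 8 weeks. False calls numbered from 5 (CAC against Con at 8 weeks) to 52 (CAC against NCAC at 4 weeks). Some comparisons thus held more false calls than the threshold allows. Errors are standard errors of log2 differences or SDs of TPM. All 10 members were named whatever their result. Of 2 lists, up to 4 genes with the smallest adjusted p in CAC against Con at 6 and 8 weeks were named, with Per1, Mt2, Fbxo32, Trim63, Pdk4, Foxo1, Cebpd, Hsd11b1 and Nr3c2 in any case. A gene outside this rule was chosen after its values were seen. The members, lists and tests were chosen with earlier results of these data known.

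Replicate numbers were not taken to pair libraries. Alternatives were a pseudocount of 0.1, no filter, median-of-ratios rescaling, 1 fit of all 12 groups, a replicate block, leaving out 3 libraries where Myh4 reached 500 TPM, and leaving out each library in turn. Promoter windows and starts are from RefSeq (GRCm38.p6). Figures were drawn with matplotlib 3.10.9.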

Additional observations from a re-analysis of the deposited data

Results flagged for a closer look

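Each of the 10 genes was examined in each of the 12 groups of 5 or 7 libraries, which made 120 tests on shared libraries. In 4 of them, 1 library stood apart from the rest by Dixon's 95% limit, which chance alone passes in about 1 test of 20. All 4 were at 8 weeks. Fkbp5 was lowest in CAC replicate 3, at 25.3 TPM, with the next CAC library at 84.9 TPM. Glul was lowest in the same CAC library, at 321 TPM, with the next at 806 TPM. That library also had the highest summed slow-fibre markers of the 7 (26304 TPM, against 11269.9 to 16377 TPM in the others), and their part was not tested. Tsc22d3 was lowest in NCAC replicate 2, at 31.7 TPM, with the next at 73.6 TPM. Nr3c1 was highest in Con replicate 2, at 56.0 TPM, with the next at 43.9 TPM.

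The difference between CAC and Con was larger at 6 than at 2 weeks, by the test of that change itself, for Errfi1 (1.47 on the log2 scale, adjusted p = 0.00947) and Glul (1.23, adjusted p = 0.029). Neither was called in the fit of all 12 groups (adjusted p = 0.398 for Errfi1 and 0.407 for Glul). The signed difference, CAC minus NCAC, was higher at 6 than at 2 weeks for 8 targets, and in some of them its sign changed. It went from -1.02 to 1.10 in Sgk1, from -0.79 to 0.61 in Tsc22d3 and from -0.95 to 1.05 in Zbtb16. Ddit4 changed by 2.37 (adjusted p = 0.00691), Fkbp5 by 2.31 (adjusted p = 0.0056), Errfi1 by 2.16 (adjusted p = 6.81e-05) and Sgk1 by 2.12 (adjusted p = 0.00011). Zbtb16 changed by 2.00 (adjusted p = 0.000513), Glul by 1.88 (adjusted p = 0.000251), Tsc22d3 by 1.40 (adjusted p = 0.00123) and Klf9 by 0.72 (adjusted p = 0.0334). In the fit of all 12 groups, Ddit4 (adjusted p = 0.078), Fkbp5 (adjusted p = 0.0585), Tsc22d3 (adjusted p = 0.078) and Klf9 (adjusted p = 0.116) were not called.

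For some targets every CAC library lay below the NCAC mean at 2 weeks and above it at a later week. Sgk1 did so at 6 weeks (a change of 2.12) and 8 weeks (2.36), Tsc22d3 at 6 weeks (1.40) and 8 weeks (1.86), and Zbtb16 at 6 weeks (2.00) and 8 weeks (2.51). Klf9 did so at 8 weeks (1.11). The changes between 2 and 8 weeks were not tested.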

How the results depend on the processing

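Of 48 calls of a member in a comparison, 27 held under every alternative, and 0 reversed. Among 2890 recomputed differences, 113 changed sign, all of them past the threshold under neither setting. The number of members called moved by more than 1.5 times in these cases, and the cause was not tested. For CAC against NCAC at 2 weeks it was 0 in place of 1 in the settings that follow, beside 68 of all genes in the main fit. They were no filter (3 of all genes called), the fit of all 12 groups (7), the replicate block (52) and no libraries of high Myh4 (1). No such move was seen for CAC at 6 and 8 weeks without the libraries of high Myh4. There 8 members (3645 of all genes) were called against Con at 6 weeks and 8 (1636) at 8 weeks, in place of 8 and 9. Against NCAC, 8 (4546) and 9 (4125) were called, in place of 8 and 9. For Con at 8 against 6 weeks the number of members was 1 in place of 3 without the filter and in the fit of all groups. All genes called were then 8077 and 8118, in place of 7167. For the CAC effect against Con from 2 to 6 weeks, 1 member in place of 2 was called without the filter. It was 0 in the fit of all groups and 1 without the libraries of high Myh4. All genes called were then 344, 24 and 324, in place of 454. In the fit of all groups, 4 members in place of 8 were called for CAC against Con at 6 weeks. All genes called there were 3269 in place of 3705. For the CAC effect against NCAC from 2 to 6 weeks, 4 members in place of 8 were called, and 415 of all genes in place of 2173.

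Leaving out 1 library gave 6 to 8 called members for CAC against Con at 6 weeks, beside 2034 to 5340 of all genes. At 8 weeks it gave 7 to 9, beside 795 to 2027 of all genes. Against NCAC it gave 0 to 2 at 2 weeks (1 to 310 of all genes) and 0 to 1 at 4 weeks (98 to 2196). The 1 at 4 weeks was Klf15, without CAC replicate 5. At 6 weeks it gave 8 to 9 against NCAC (2852 to 5729 of all genes) and at 8 weeks 7 to 9 (2020 to 4125). For NCAC against Con at 2 weeks the range was 0 to 4 members (0 to 78 of all genes). For Con at 8 against 6 weeks it was 1 to 3 (6048 to 7107). The CAC effect from 2 to 6 weeks had 1 to 3 against Con (265 to 1108) and 7 to 9 against NCAC (1494 to 3300). The other comparisons had 0 members, beside at most 936 of all genes (CAC against Con at 4 weeks). The 3 for Con at 8 against 6 weeks became 1 without replicates 3 or 4 of 6 weeks or 2 or 4 of 8 weeks.

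Replicate numbers were not taken to pair libraries, since over 60 pairs of same-numbered libraries the correlation of deviations was -0.67 to 0.48 (median -0.01) and was over 0.1 in 15. Between CAC and NCAC at 4 weeks it was 0.05 to 0.34 and over 0.1 in 3 of 5 pairs. There 0 members were called with the block, beside 208 of all genes. With the replicate block, Klf15 (adjusted p = 0.0792) and Klf9 (adjusted p = 0.13) against Con at 8 weeks, Glul against NCAC at 8 weeks (adjusted p = 0.0548) and Sgk1 against NCAC at 2 weeks (adjusted p = 0.0679) were not called, and Klf15 was called in the CAC effect against NCAC from 2 to 6 weeks (adjusted p = 0.041).

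Over all genes, CAC against Con at 4 weeks called 140, with 63 without the filter, 84 in the fit of all groups, 68 with the block and 34 to 936 when 1 library was left out. At 8 weeks it called 1430, and 4206 in the fit of all groups. Rescaling moved the median gene by 0.15 against Con and NCAC at 6 weeks, 0.18 against NCAC at 8 weeks and 0.28 for Con at 8 against 6 weeks. It turned 3181 higher and 524 lower genes into 1503 and 1527 against Con at 6 weeks, 3758 and 658 into 1964 and 1860 against NCAC at 6 weeks, and 2606 and 362 into 690 and 840 against NCAC at 8 weeks. TPM holds no depth, so counting error is not known.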
